A study of Homo sapiens with 6 samples.

Results

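The genes described here are 10 that detect DNA in the cytosol, carry its signal or remove it before it is detected. They were taken by name from a table of 57736 Ensembl genes, in which all 10 were found, CGAS and STING1 being the current symbols of MB21D1 and TMEM173. Their mRNA was measured in PC3, a line derived from a metastasis of human prostate cancer, after a control siRNA (siCTRL, n = 3 libraries) or an siRNA directed to Mic60 (siMic60, n = 3 libraries). Mic60, encoded by IMMT, is a structural protein of the mitochondrial inner membrane, and the deposited labels also call the groups Mic60 WT and Mic60 KO. All libraries came from this line with no other treatment named, and 1 Mic60-directed group was sequenced. The methods state in general that data came from independent biological replicates but do not say it of these libraries, and each p rests on the spread among the 6 libraries alone.

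The enzyme cGAS binds double-stranded DNA in the cytosol and makes the cyclic dinucleotide cGAMP. This binds STING at the endoplasmic reticulum, which moves to the Golgi and recruits the kinase TBK1 to activate IRF3, a transcription factor for interferon genes. AIM2 and IFI16 bind DNA through the HIN domain of the PYHIN family, and AIM2 assembles an inflammasome that activates caspase-1. TREX1 and RNase H2 remove DNA and RNA-DNA hybrids, ENPP1 hydrolyses cGAMP, and ZBP1 binds nucleic acids in the Z conformation. DNA that leaves the nucleus or the mitochondria is a known ligand of these sensors, and many tumor lines carry little cGAS or STING.

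The libraries read polyadenylated transcripts near the 3′ end (QuantSeq), and counts therefore track transcript number rather than transcript length. Total counts were 6644495 to 8779877 per library. Levels are given in CPM, the counts of a gene scaled to a common library size after TMM normalization. A gene was tested with edgeR's quasi-likelihood test where at least 10 counts were present in at least 3 libraries, and was called at a Benjamini-Hochberg adjusted p under 0.05 over all 14653 genes tested. IMMT mRNA stood at 8.12% of its control level in siMic60 cells (adjusted p = 4.29e-10, edgeR). Of the markers used to check the line, KRT8, KRT18, EPCAM, CD44 and VIM were present and KLK3 had no count, as is known for PC3. Of 14 markers of leukocytes and red cells, 8 had no count in any library, and all 14 together reached 2.04 to 2.75 CPM in siCTRL and 0.922 to 3.18 CPM in siMic60 libraries.

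Mic60 silencing was associated with higher mRNA of both PYHIN sensors, of cGAS and of 2 of the enzymes that clear nucleic acids, with no called change of STING1, and with lower ENPP1. AIM2 went from no count in any control library to 10.8 to 14.0 CPM, IFI16 rose 6.82-fold, TREX1 2.62-fold, CGAS 1.86-fold and RNASEH2A 1.34-fold, and ENPP1 fell to 32.1% of control. STING1, RNASEH2B and RNASEH2C did not pass the test, and ZBP1 was too low to be tested. AIM2 passed the filter on low counts through its siMic60 libraries alone and therefore had to differ. Of the other 8 tested genes, 4 rose, 1 fell and 3 did not pass, where 17.7% of all tested genes were called higher and 17.9% lower. For 4 of these 8 all siMic60 libraries lay above all siCTRL libraries (23.7% of all tested genes) and for 1 they lay below (24.1% of all tested genes). The groups thus did not overlap for 5 of 8, against 47.9% of all tested genes. These are bulk samples, in which a change in the number of cells that express a gene and a change in RNA per cell cannot be told apart.

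**Figure D1:**
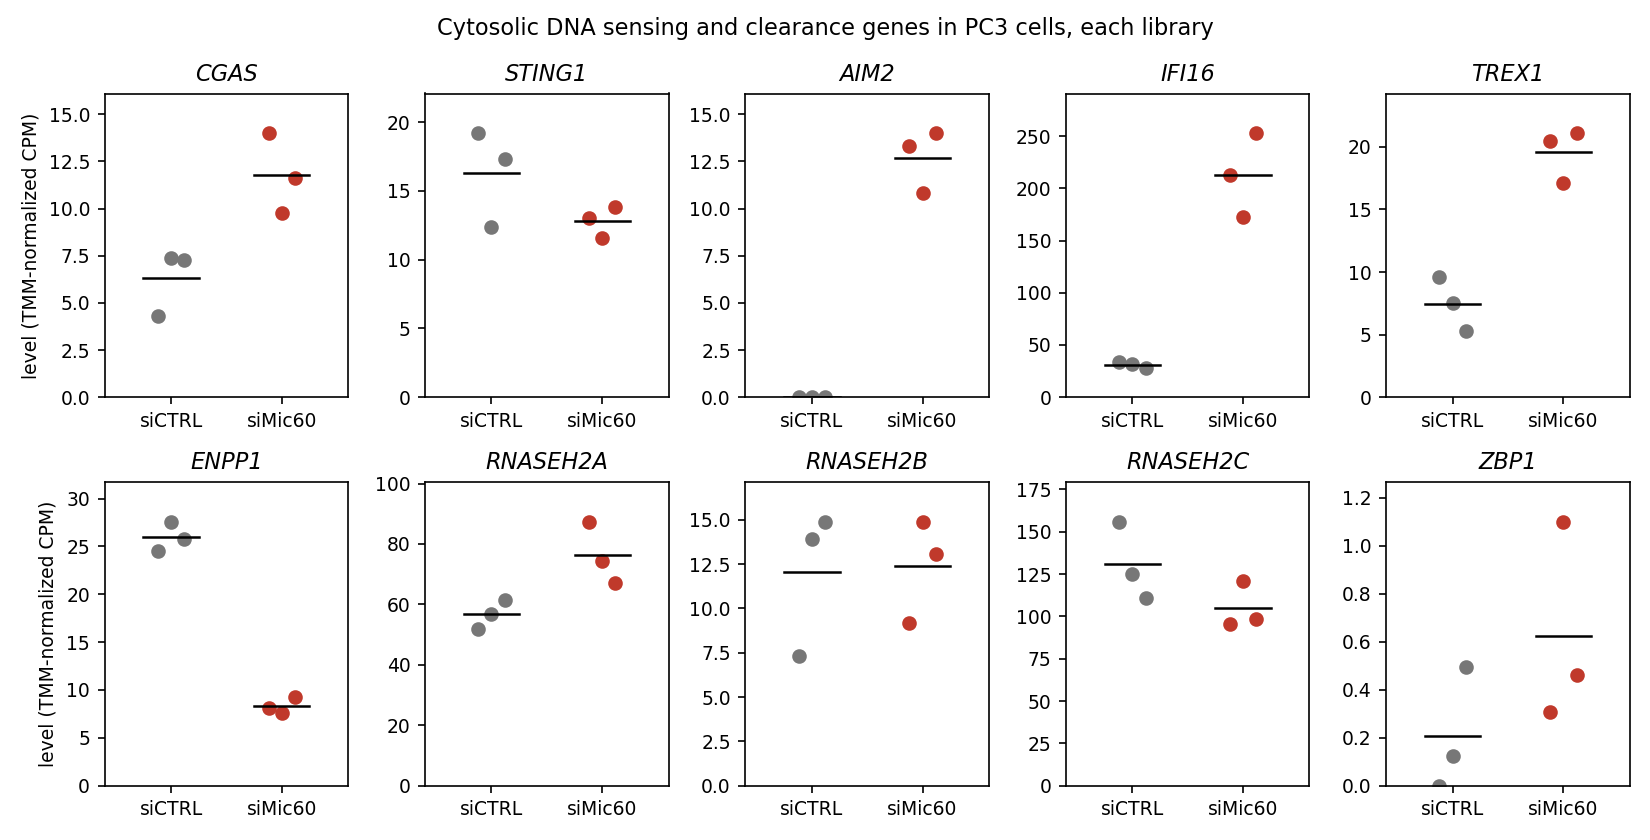
Levels of the 10 genes in TMM-normalized CPM on linear axes that start at 0, with 1 point for each of the 3 siCTRL (grey) and 3 siMic60 (red) libraries and a line at each group's mean. AIM2 is at 0 in every siCTRL library and at 10.8 to 14.0 CPM in siMic60, and ENPP1 is lower in every siMic60 library.

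AIM2 and IFI16 lie next to each other in the gene order of chromosome 1, after MNDA and PYHIN1, the other members of their family. Because both rose, and AIM2 rose from no count, the RefSeq promoter windows of these 2 genes are shown (GRCh38.p14, 250 bases before to 50 after the start, 5′ to 3′ on the strand of the gene). IFI16 has 2 windows in the table. Capitals mark a match, on either strand, to the core of the interferon-stimulated response element (ISRE), searched here as GAAA, then any 2 bases (NN), then GAAA.
AIM2 at chr1:159076717-159077016, minus strand: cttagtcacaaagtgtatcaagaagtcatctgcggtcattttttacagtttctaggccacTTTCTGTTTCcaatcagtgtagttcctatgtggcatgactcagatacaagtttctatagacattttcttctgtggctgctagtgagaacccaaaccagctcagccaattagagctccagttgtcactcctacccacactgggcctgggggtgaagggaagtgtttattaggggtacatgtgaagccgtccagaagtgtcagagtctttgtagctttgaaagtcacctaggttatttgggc
IFI16 at chr1:159008741-159009040, plus strand: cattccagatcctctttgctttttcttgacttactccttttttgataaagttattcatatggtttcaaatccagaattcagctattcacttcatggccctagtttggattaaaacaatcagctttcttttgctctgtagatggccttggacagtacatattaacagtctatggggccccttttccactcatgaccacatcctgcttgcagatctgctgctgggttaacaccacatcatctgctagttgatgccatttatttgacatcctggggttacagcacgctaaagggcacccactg
IFI16 at chr1:159009657-159009956, plus strand: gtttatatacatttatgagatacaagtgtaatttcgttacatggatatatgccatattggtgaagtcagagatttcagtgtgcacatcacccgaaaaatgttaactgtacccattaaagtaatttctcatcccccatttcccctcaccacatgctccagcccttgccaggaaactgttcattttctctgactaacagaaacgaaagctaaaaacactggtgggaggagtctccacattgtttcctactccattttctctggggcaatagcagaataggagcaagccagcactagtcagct
The AIM2 window holds 1 match, on the opposite strand, that begins 190 bases before the start. No other window of the 10 genes held the ISRE core, among 9 windows for 7 of them, and none held TTCNNNGAA, the core of the gamma-activated site, which is its own reverse complement. Over all 35116 RefSeq promoter windows, 3.57% held the ISRE core and 7.66% held TTCNNNGAA on either strand. Among 30 interferon-stimulated genes listed for comparison, 18 of 31 windows (58.1%) held the ISRE core, which is 15 of the 23 genes with a window. CGAS, STING1 and ZBP1 were not in the table. A match describes the letters in this window and does not show a binding site.

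AIM2 (ENSG00000163568) was not detected in control cells. It had 0 counts in siCTRL replicates 1, 2 and 3 and 87, 88 and 121 counts in siMic60 replicates 1, 2 and 3. All 3 siMic60 libraries thus carried AIM2 transcripts and no siCTRL library did. Set against 3 counts over the siCTRL group, or 0.123 CPM, its level was at least 103-fold higher, a bound for counting error only. Because the filter itself required high siMic60 counts of this gene, no p is given for it. Of all 57736 rows of the table, AIM2 alone had no count in the siCTRL libraries and at least 50 in each siMic60 library. The rows with no control count and at least 10 counts in each siMic60 library numbered 3, and the others, named after their values were seen, were UGT1A8, which shares exons with other UGT1A genes and is uncertain for that reason, and the pseudogene GBP1P1.

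IFI16 (ENSG00000163565), a sensor found in both nucleus and cytosol, had the largest gain in level of the 10. It was counted 282, 252 and 230 times in siCTRL replicates 1 to 3, and 1389, 1416 and 2193 times in siMic60 replicates 1 to 3. The lowest siMic60 library was far above the highest siCTRL library, and siMic60 replicate 3 was the highest of all. In CPM this was 31.2 ± 2.73 against 213 ± 39.8 (SD, n = 3 each), a log2 fold change of 2.77 (standard error 0.15, adjusted p = 5.16e-09, edgeR). By the size of its fold, IFI16 ranked 91 of the 2587 genes that were called higher. The remaining genes of the family, PYHIN1 and MNDA, did not share the rise of IFI16 and AIM2. PYHIN1 was at 6.10 ± 0.407 and 5.74 ± 2.20 CPM (SD, n = 3 each; adjusted p = 0.815, edgeR), and MNDA, a gene of myeloid cells, had no count in any library.

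CGAS (ENSG00000164430), which makes cGAMP, was among the scarcer transcripts. Control replicates 1 to 3 held 36, 59 and 59 CGAS counts, and siMic60 replicates 1 to 3 held 91, 80 and 101, or 6.32 ± 1.74 against 11.8 ± 2.08 CPM (SD, n = 3 each). The groups did not overlap, and siCTRL replicate 1 was the lowest library. CGAS rose by 0.89 on the log2 scale (standard error 0.25, adjusted p = 0.0106, edgeR), with a 95% interval of the fold from 1.29 to 2.67. Without siCTRL replicate 1 it was 0.68, and the call was kept (adjusted p = 0.0376, edgeR). DDX43, whose exons overlap those of CGAS on the other strand, had no count.

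STING1 (ENSG00000184584), the receptor of cGAMP, gave 160, 99 and 140 counts without silencing and 85, 95 and 120 with it. In CPM it was at 16.3 ± 3.50 and 12.8 ± 1.12 (SD, n = 3 each), and the groups overlapped because siCTRL replicate 2, at 12.4 CPM, fell within the siMic60 range. Its log2 fold change of −0.34 (standard error 0.19) did not pass the test (adjusted p = 0.185, edgeR). The 95% interval of the fold, 0.592 to 1.05, leaves room for a decrease of that size and for no change, and does not reach an increase such as that of CGAS.

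ENPP1 (ENSG00000197594), a membrane enzyme that breaks down extracellular cGAMP, was the gene of the 10 that fell. From 204, 221 and 209 counts in control replicates 1 to 3, it was left with 53, 62 and 80 in the silenced ones. The replicates lay close together in each group, and every siMic60 library was under every siCTRL library. In CPM, 26.0 ± 1.6 stood against 8.31 ± 0.834 (SD, n = 3 each), a log2 fold change of −1.64 (standard error 0.17, adjusted p = 3.34e-06, edgeR). It ranked 350 of the 2617 genes called lower by the size of the fold. Within a library, the log2 ratio of STING1 to ENPP1 counts was −0.35, −1.15 and −0.58 in siCTRL and 0.67, 0.61 and 0.58 in siMic60. The receptor's transcript was thus the scarcer of the pair in each control library and the more abundant in each silenced one, a difference of 1.31 on the log2 scale (two-sided exact permutation test, p = 0.1, below which 6 libraries in equal groups cannot go).

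TREX1 (ENSG00000213689), a 3′ exonuclease that degrades cytosolic DNA, was counted 80, 60 and 43 times in control and 134, 140 and 183 times in silenced cells. Its level was 7.46 ± 2.14 and 19.6 ± 2.15 CPM (SD, n = 3 each), with no overlap, a rise of 1.39 on the log2 scale (standard error 0.22, adjusted p = 1.63e-04, edgeR). TREX1 shares 1515 exonic bases on the same strand with ATRIP, so reads of the 2 genes can be split between them, and ATRIP had 74, 98 and 101 counts in siCTRL and 85, 136 and 160 in siMic60 libraries. With the counts of both added and tested as 1 gene, a check chosen after the data were seen, the summed level was 18.7 ± 1.02 CPM in siCTRL and 35.6 ± 3.39 CPM in siMic60 (SD, n = 3 each), which is 1.91-fold (adjusted p = 1.34e-04, edgeR). The rise was thus called with and without ATRIP, at a smaller fold with it. The log2 ratio of CGAS to TREX1 counts was −1.13, −0.02 and 0.45 in siCTRL and −0.55, −0.80 and −0.85 in siMic60 libraries. These groups overlapped (difference −0.50, two-sided exact permutation test, p = 0.4), so a shift between sensor and nuclease was not shown.

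RNase H2, which removes RNA paired with DNA and single ribonucleotides in DNA, is built from RNASEH2A, the catalytic subunit, and the auxiliary subunits RNASEH2B and RNASEH2C. RNASEH2A (ENSG00000104889) gave 431, 454 and 500 counts in control and 570, 607 and 581 in silenced cells, or 56.7 ± 4.99 and 76.2 ± 10.3 CPM (SD, n = 3 each). Its lowest siMic60 library, at 67.0 CPM, was above its highest siCTRL library, at 61.6 CPM. The log2 fold change of 0.42 (standard error 0.13, adjusted p = 0.0209, edgeR) placed it at 2350 of the 2587 genes called higher. The call was lost without siCTRL replicate 1 (adjusted p = 0.0626), without siCTRL replicate 2 (adjusted p = 0.062) or without siMic60 replicate 1 (adjusted p = 0.0946, all by edgeR). RNASEH2A also shares 1123 exonic bases on the same strand with THSD8, which was not among the genes of the deposited counts.

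RNASEH2B (ENSG00000136104) had 61, 111 and 121 counts in siCTRL and 60, 122 and 114 in siMic60 libraries. Replicate 1 was the lowest library in both groups, at 7.31 and 9.20 CPM, and the groups overlapped. It differed by 0.06 on the log2 scale (standard error 0.26, adjusted p = 0.89, edgeR), with a 95% interval of the fold from 0.711 to 1.52. RNASEH2C (ENSG00000172922) had 1302, 999 and 901 counts in siCTRL and 624, 987 and 855 in siMic60 libraries. In CPM it was at 131 ± 23.0 and 105 ± 13.7 (SD, n = 3 each), with overlap, and its log2 fold change of −0.32 did not pass (standard error 0.14, adjusted p = 0.102, edgeR). The 95% interval of its fold, not adjusted for the number of genes, was 0.650 to 0.994 and left out no change narrowly. RNASEH2C overlaps KAT5 on the other strand over 1439 exonic bases, and KAT5 fell (log2 fold change −0.37, adjusted p = 0.0361, edgeR). Whether the counting used strand is not stated in the methods, and reads of these 2 genes may have been mixed, and their added counts, also tested after the data were seen, had a log2 fold change of −0.33 (adjusted p = 0.0501, edgeR).

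The catalytic subunit and the auxiliary ones did not move alike in every pairing. The log2 ratio of RNASEH2A to RNASEH2C counts was −1.59, −1.14 and −0.85 in siCTRL and −0.13, −0.70 and −0.56 in siMic60 libraries, which did not overlap (difference 0.73, two-sided exact permutation test, p = 0.1). That of RNASEH2A to RNASEH2B was 2.80, 2.02 and 2.04 against 3.23, 2.31 and 2.34, which overlapped (difference 0.34, p = 0.5 by the same exact test). The 4 ratios are a family in which no p can fall under 0.1.

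**Figure D2:**
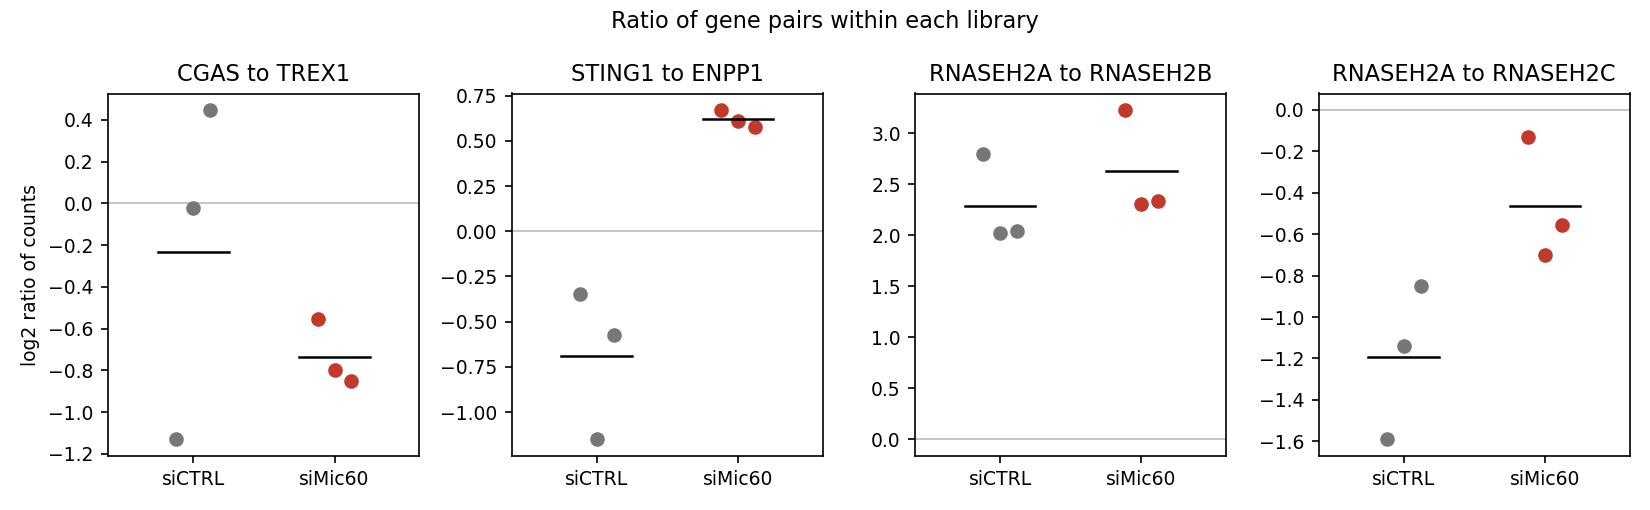
Log2 ratio of the counts of 2 genes in the same library, with 1 point for each of 3 siCTRL (grey) and 3 siMic60 (red) libraries and a line at the mean, on axes that differ between panels. STING1 to ENPP1 and RNASEH2A to RNASEH2C do not overlap between the groups, and the other pairs do.

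ZBP1 (ENSG00000124256), which can start necroptosis, was barely detected. Control replicates gave 0, 1 and 4 counts, silenced ones 2, 9 and 4, and the groups overlapped. The ratio of its levels, from 5 and 15 counts in all, was 3.14 (95% exact interval 1.08 to 11, for counting error only). When no minimum count was set, it did not pass the test (log2 fold change 1.56, standard error 1.06, adjusted p = 0.348, edgeR), so a difference was not detectable at this depth.

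**Figure D3:**
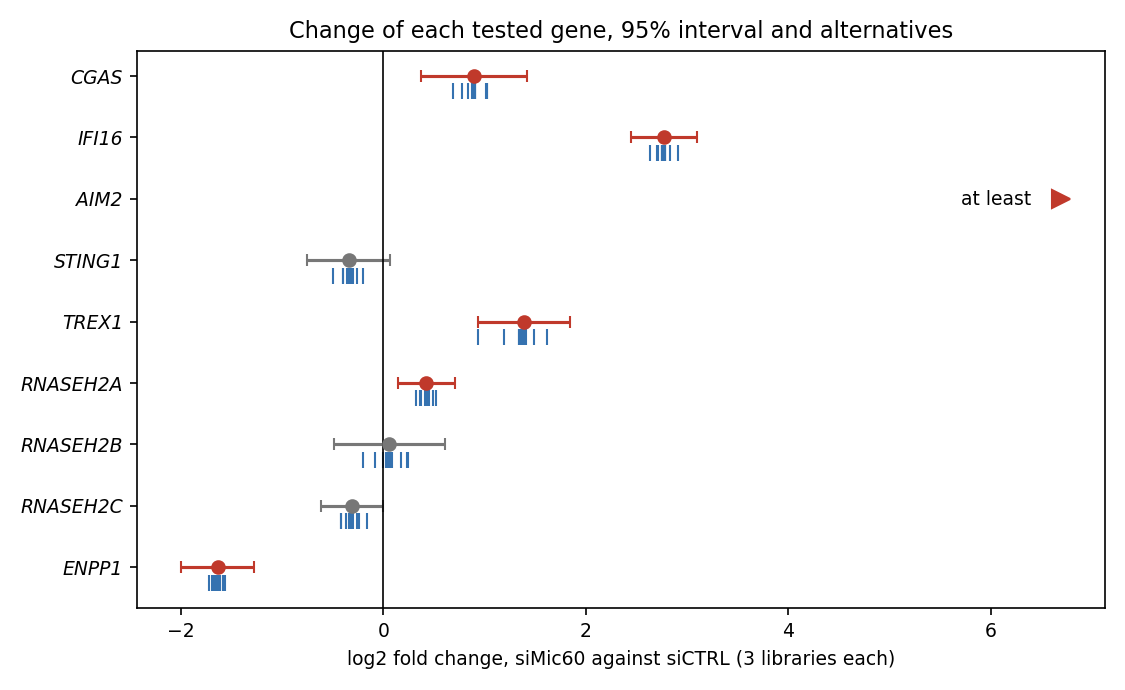
Log2 fold change of the 9 tested genes in siMic60 against siCTRL cells with 95% intervals, red where called and grey where not. Blue ticks are the values under the alternative settings, and the AIM2 arrow is its lower bound, at least 103-fold. The intervals, which are not adjusted for the number of genes, lie above 0 for CGAS, IFI16, TREX1 and RNASEH2A. They lie below 0 for ENPP1 and, narrowly, for RNASEH2C, which was not called after adjustment.

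The order of the 10 genes by level changed with silencing. In siCTRL cells RNASEH2C was highest, at 131 CPM, followed by RNASEH2A, IFI16 and ENPP1, each separated from the next by the range of its libraries. STING1, RNASEH2B, TREX1 and CGAS followed, from 16.3 to 6.32 CPM, and each overlapped its neighbour. In siMic60 cells IFI16 was highest, at 213 CPM, above RNASEH2C, RNASEH2A and TREX1 with no overlap between neighbours. STING1, AIM2, RNASEH2B and CGAS then lay together between 12.8 and 11.8 CPM and could not be ordered, and ENPP1, at 8.31 CPM, was under them in mean and above ZBP1, but its range met that of RNASEH2B (up to 9.22 and from 9.20 CPM).

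By the root-mean-square difference of log2 levels over the 6 libraries, each centred on its siCTRL mean, the genes closest to IFI16 among 11230 compared were SAMD9 (0.088) and PARP14 (0.13). Those closest to CGAS were the pseudogene ATP5F1EP2 (0.061) and APAF1 (0.062), C6orf120 (0.093) was among those closest to ENPP1, and those closest to TREX1 were ARHGAP18 (0.14) and ISG20 (0.17). AIM2 was nearest to RSAD2 (0.20) and BST2 (0.34), where its distance depends on the prior count given to its zeros. For STING1 they were ZNF555 (0.045) and CRELD1 (0.063), for RNASEH2A NAB1 (0.039) and DDX39B (0.044), for RNASEH2B CCNH (0.079) and COX7B2 (0.11), and for RNASEH2C TCEAL4 (0.034) and ZDHHC7 (0.038). With so few libraries, these distances are a description.

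The wider pathway was followed in 10 lists of 115 genes, of which 113 were matched and 95 tested. In all, 36 rose and 12 fell (37.9% and 12.6% of those tested, against 17.7% and 17.9% of all genes), with a median log2 fold change of 0.15 against 0.0022 over all tested genes. These counts include CASP1, CXCL10, IFNL1 and NLRP3, which passed the filter through 1 group alone and had to differ. The lists were drawn with earlier results of these data known and hold genes that are also induced by interferon. All 30 interferon-stimulated genes used for comparison rose, with a median of 3.24. IFIT1, IFIT2, IFIT3, ISG15 and IRF7 are in both the pathway lists and this comparison. Whether the rises here were separate from those was not tested.

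Of 9 other DNA sensors tested, 0 were called higher by edgeR, against 17.7% of all genes. At an unadjusted p under 0.05 it was 1, as it was with DESeq2, with limma-trend, with DESeq2 size factors and without siMic60 replicate 3. XRCC5, a subunit of the Ku complex that binds DNA ends, and POLR3A, a subunit of RNA polymerase III, fell, to 78.0% and 79.6% of control (adjusted p = 0.0259 and 0.0455, edgeR). Leaving out any 1 library except siMic60 replicate 1 left 1 sensor called lower, or 0 without siMic60 replicate 3. The endosomal DNA receptor TLR9 had no count. HNRNPA2B1, named after its value was seen, was at 393 ± 29 and 483 ± 39.8 CPM (SD, n = 3 each) and just missed the test (adjusted p = 0.052, edgeR).

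Of 10 partners of cGAS, 5 rose and 1 fell, where 17.7% of all tested genes were called higher and 17.9% lower. G3BP1, a stress granule protein that promotes DNA binding by cGAS, rose 2.72-fold, with 78.4 ± 4.80 CPM in control and 214 ± 28.2 CPM in silenced cells (SD, n = 3 each). TRIM14, with 439, 513 and 574 counts in control and 1923, 1419 and 2445 in silenced cells, rose by 2.00 on the log2 scale (standard error 0.18). The ubiquitin ligase TRIM56 rose 2.03-fold. Without siCTRL replicate 1, 3 partners were called lower. HMGB1, an abundant chromatin protein, fell, with 488 ± 75.8 CPM in control and 273 ± 9.42 CPM in silenced cells (SD, n = 3 each; log2 fold change −0.84, standard error 0.12, adjusted p = 1.12e-04, edgeR).

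Among 10 tested genes of cGAMP transport and breakdown, 4 rose and 1 fell, against 17.7% and 17.9% of all genes called higher and lower. LRRC8C, LRRC8D and LRRC8E, subunits of volume-regulated anion channels that can carry cGAMP, rose 2.04-fold, 1.76-fold and 1.58-fold, while the obligate subunit LRRC8A was at 84.4 ± 5.77 and 86.0 ± 11.2 CPM (SD, n = 3 each; adjusted p = 0.889, edgeR). SLC19A1, a folate carrier that imports cyclic dinucleotides, rose 1.42-fold, and the related folate transporter SLC46A1 fell to 66.6% of control. Without siCTRL replicate 1, siCTRL replicate 2 or siMic60 replicate 1 the call of SLC46A1 was lost and 0 genes of the list were called lower by edgeR. ENPP3, a relative of ENPP1, had 3 counts in control and 2 in silenced cells, too few to be tested.

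For the steps after STING, the picture was mixed. Of 13 tested genes of STING trafficking and turnover, 1 rose (7.69%), 2 fell (15.4%) and 10 were not called, against 17.7% and 17.9% of all genes called higher and lower. Without siCTRL replicate 1 or siMic60 replicate 1 it was 2 that rose, and without the latter 1 that fell. YIF1A, a protein of vesicle traffic between endoplasmic reticulum and Golgi, rose 2.10-fold, and RHBDF2 and NPC1, a cholesterol transporter of the lysosome, fell to 70.2% and 74.7% of control. Of 12 tested kinases and factors downstream, 4 rose (33.3%) and 2 fell (16.7%), against 17.7% and 17.9% of all genes. TBK1, with 35, 91 and 93 counts in siCTRL and 71, 92 and 117 in siMic60 libraries, and IRF3, at 47.2 ± 2.79 and 40.7 ± 8.37 CPM (SD, n = 3 each), did not pass (adjusted p = 0.308 and 0.266, edgeR). IRF7, an interferon-induced relative of IRF3, rose 4.09-fold. TRAF3, an adaptor of interferon induction, and MAP3K14, the kinase of the noncanonical NF-kB pathway, fell to 50.4% and 44.2% of control.

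Of 7 tested genes that this pathway is known to switch on, 2 (CXCL10 and IFNL1) passed the filter only through their siMic60 counts. The other 5 rose, against 17.7% of all genes, among them IFIT3 (20.4-fold), IFIT1 (12.7-fold) and IFIT2 (12.2-fold). IFNB1, the classical target of IRF3, was under the minimum for the test. It was counted 0, 1 and 0 times in control and 7, 11 and 5 times in silenced cells. Every silenced library thus held more IFNB1 counts than any control library, and the ratio of levels was 24.1 (95% exact interval 3.91 to 991, for counting error only). Other sensors, of RNA, also lead to these genes, and the share of DNA sensing in them cannot be told from mRNA levels.

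**Figure D4:**
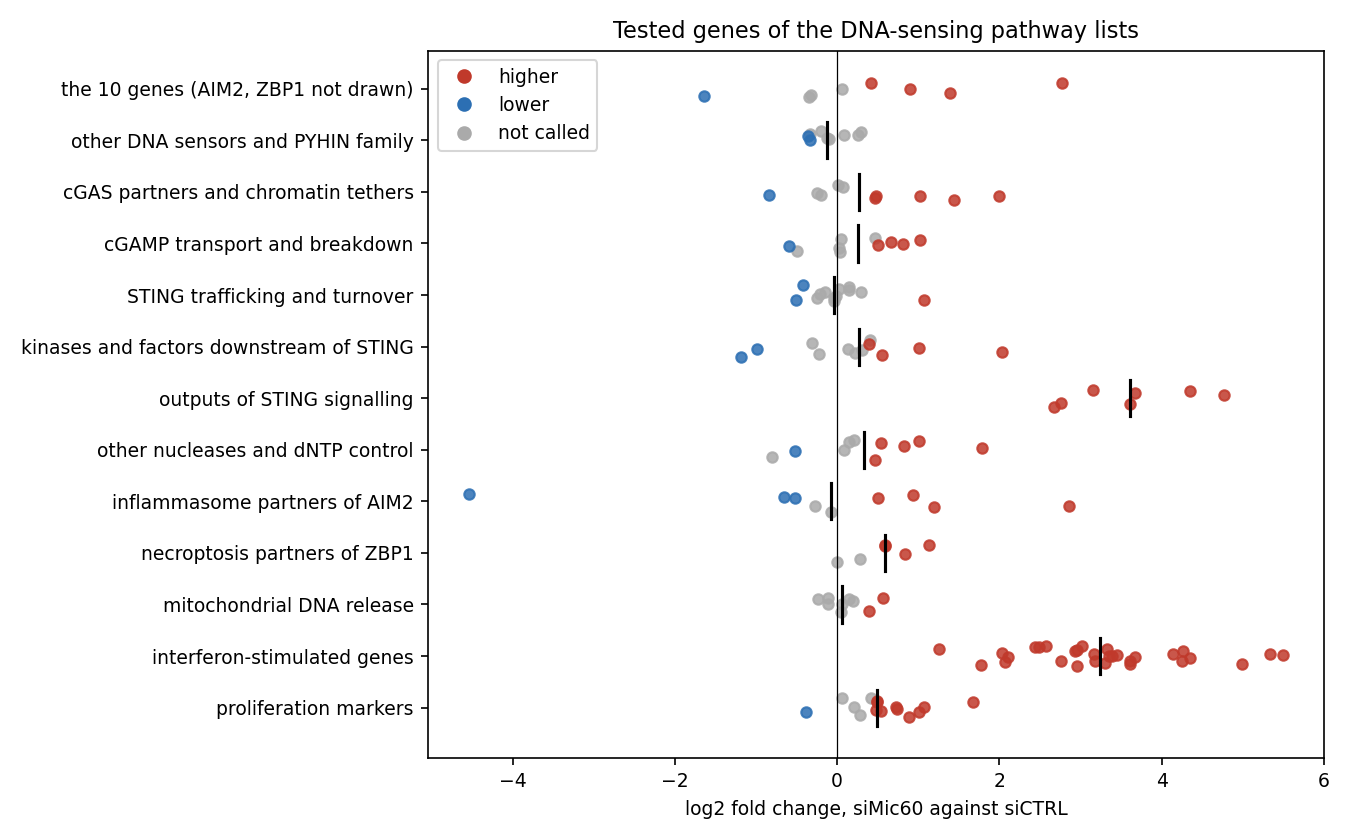
Log2 fold change of each tested gene, siMic60 against siCTRL, in the 10 pathway lists, 8 of the 10 genes themselves (AIM2 and ZBP1 are not drawn) and 2 lists for comparison, red where called higher, blue where called lower and grey where not called, with a black line at the median of each list but the first. All 7 tested outputs of STING signalling are called higher, CXCL10 and IFNL1 after passing the filter through siMic60 alone, and none of the 9 other DNA sensors is called higher by edgeR.

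Of 10 other tested nucleases and genes of nucleotide control, 5 rose and 1 fell. Over all tested genes, 17.7% were called higher and 17.9% lower. SAMHD1, which hydrolyses deoxynucleotides, rose 3.46-fold, with 101 ± 4.54 CPM in control and 348 ± 38.8 CPM in silenced cells (SD, n = 3 each). ADAR, an RNA editing enzyme, rose 2.02-fold. RNASEH1, the single-subunit RNase H of nucleus and mitochondria, moved opposite to RNASEH2A and fell to 69.7% of control (log2 fold change −0.52, standard error 0.12, adjusted p = 0.00383, edgeR). TREX2, DNASE2B and PLD4 had no count.

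The inflammasome partners of AIM2 moved in both directions. Of 9 tested, CASP1 passed the filter only through its siMic60 counts and NLRP3 only through its siCTRL counts. Of the others 3 rose, 2 fell and 2 did not pass, where 17.7% of all genes were called higher and 17.9% lower. The protease CASP1 was at 3, 13 and 9 counts in siCTRL and 50, 59 and 67 in siMic60 libraries, which did not overlap. CASP4, a related protease, rose 2.30-fold, and the pore protein GSDMD, which both cleave, rose 1.91-fold. The adaptor PYCARD, which links AIM2 to caspase-1, was at 39.0 ± 2.82 and 32.3 ± 4.12 CPM (SD, n = 3 each) and did not pass (adjusted p = 0.141, edgeR). Of the cytokine substrates, IL18 rose 1.42-fold and IL1B fell to 69.6% of control. NLRP3, the sensor of another inflammasome, was at 33, 22 and 26 counts in siCTRL and at 0, 1 and 2 in siMic60 libraries, which did not overlap. GSDME fell to 63.6% of control.

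RIPK3, the kinase through which ZBP1 starts necroptosis, had no count in any library, and its substrate MLKL was at 16.0 ± 2.75 and 19.4 ± 2.67 CPM (SD, n = 3 each; adjusted p = 0.246, edgeR). Of 6 tested genes listed with ZBP1, not all of them necroptosis genes, 4 rose (66.7%, against 17.7% of all genes). Among them were CASP8 at 2.19-fold, the ubiquitin ligase TRIM25 at 1.78-fold and the caspase-8 regulator CFLAR at a log2 fold change of 0.59. Of 9 genes linked to the release of mitochondrial DNA 2 rose, or 22.2% against 17.7% of all genes, and 1 with library totals or without siCTRL replicate 2, siCTRL replicate 3, siMic60 replicate 1 or siMic60 replicate 3. TFAM, which packages that DNA, rose 1.48-fold and BAK1, a pore-forming BCL2 relative, 1.31-fold. VDAC1, VDAC2 and VDAC3, channels of the outer membrane, did not pass, with folds of 0.928, 1.05 and 1.11.

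RNASEH2A is known to be higher in dividing cells. In these libraries 10 of 15 proliferation markers rose (66.7%, against 17.7% of all genes) and 1, MCM3, fell (6.67%, against 17.9%). The markers had a median log2 fold change of 0.49 beside 0.42 for RNASEH2A. The number that rose was 6 without siCTRL replicate 1 or without siMic60 replicate 1, and the call of MCM3 was lost when any 1 library other than siMic60 replicate 2 was left out. MKI67, TOP2A, CCNA2 and MCM6 did not pass. TK1 rose 3.19-fold, RRM2 2.10-fold and PLK1 2.02-fold. The part of these markers in the change of RNASEH2A was not tested.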

How the data were processed

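RNA of PC3 cells was sequenced from 3 siCTRL and 3 siMic60 libraries. The authors deposited whole-number counts per Ensembl gene, 1 column per library, with no normalization. The build hg19 (GRCh37), DESeq2 and RSEM 1.2.3 are listed in the submitters' processing notes, without their roles. RSEM estimates counts, so these may have been rounded. Aligner, annotation release and strandedness: not given in the sources used here. Library depth was 6644495 to 8779877 counts, where 3 counts are 0.346 to 0.46 CPM in 1 library. Chi-square values per degree of freedom of 3.54 to 13.5 within groups showed that no 2 libraries were the same one deposited again.

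Identifiers were matched to symbols for 52301 of 57736 rows, 39501 by current names and the others by GENCODE 29. As its build, GRCh38, is not that of the counts, gene coordinates are not given, and overlaps between genes are those of GENCODE 29. IKBKE and CCL5 had no matched row.

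Differences between the groups were fitted with edgeR 4.0.16 under R 4.3.3 (TMM, at least 10 counts in at least 3 libraries, quasi-likelihood test, no replicate block, Benjamini-Hochberg threshold 0.05). Standard errors follow from the log2 fold change and its F value. Ratios used a prior count of 1, profile distances a prior count of 2 and a mean of at least 5 CPM. Named genes are the 10, IMMT, up to 3 called genes with the smallest adjusted p and every called lower gene in each list, and the 2 nearest profiles of each tested gene, of which 1 is not reported here. Further genes of a list are named for their role, after their values were seen. The 10 genes and the lists were chosen with earlier results of these data known. Alternatives were DESeq2 1.42.0, limma-trend (limma 3.58.1), other scalings and filters, a replicate block and leaving out each library, then with at least 10 counts in at least 2 libraries. The edgeR step was tested on simulated data. Python 3.11.15 and scipy 1.17.1 gave the exact tests.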

Additional observations from a re-analysis of the deposited data

How the results depend on the processing

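CGAS, IFI16, TREX1 and ENPP1 kept their direction and call under every alternative run, CGAS with adjusted p from 0.00145 to 0.0475. With library totals in place of TMM, RNASEH2C was narrowly called lower (log2 fold change −0.37, adjusted p = 0.0499998, edgeR). That made 2 of the 10 genes lower, and the value of RNASEH2B was −0.0056. Of all 14653 tested genes, 3003 were called lower with library totals, and the median log2 fold change of all was −0.0548. Leaving out 1 library gave log2 fold changes of 0.33 to 0.52 for RNASEH2A, whose call was lost in 3 of these fits, and of −0.20 to 0.24 for RNASEH2B, negative without siCTRL replicate 1 or siMic60 replicate 2. The causes were not tested. Deviations from the group means of same-numbered libraries correlated at −0.102, −0.0311 and 0.0293 over genes. Those of differently numbered libraries correlated at −0.111 to 0.122, so no pairing by number was seen. With 3 libraries per group this check cannot exclude pairing. With a replicate block, 5 of the 9 tested genes were higher and 1 lower, as without it, but AIM2 among them had to differ. Of all 14653 tested genes, 2384 were called higher and 2382 lower with the block. RNASEH2A then had a log2 fold change of 0.42. The difference of 1.31 in the log2 ratio of STING1 to ENPP1 is the same with the block by construction, which gives no information on pairing. Of 325 counts per list under an alternative, 32 moved by over 1.5 times. AIM2, which passed the filter through siMic60 alone, gives no information on stability. Depth limits ZBP1, IFNB1 and the control levels of AIM2, IFNL1 and CXCL10.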
